A study of Homo sapiens with 2 samples.

Results

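The genes described here are the integrin subunits, the kindlins and the proteins that tie integrins to actin at focal adhesions, measured in MDA-MB 231, a highly invasive human breast cancer cell line without estrogen receptor. They were chosen by name: the integrin alpha and beta subunit genes, FERMT1, FERMT2, FERMT3, TLN1, TLN2, ILK, LIMS1, PARVA, PARVB, VCL, PXN, ZYX, BCAR1 and PTK2, which makes 39 genes, 25 of them integrin subunits, against 19775 genes in all with a probe set of their own. One group was cells stably transfected with S100A7 (psoriasin, a small calcium-binding protein known from inflamed skin) cloned into the plasmid pIRES2-EGFP, and the other was cells stably transfected with pIRES2-EGFP alone, so both groups carried the plasmid. Each group was 1 Affymetrix array of total RNA from cultured cells, and the labels do not say whether a stable line was a single clone or a pool. The growth medium was DMEM with fetal bovine serum and antibiotics, and the confluence at harvest is labelled for the vector cells alone. The series asks which genes S100A7 regulates.

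Integrins are cell surface receptors made of 1 alpha and 1 beta chain, and the pair decides whether a cell holds on to collagen, laminin, fibronectin or a protein on another cell. Talins and kindlins bind the tail of the beta chain inside the cell and switch the receptor into its ligand-binding state. A complex of integrin-linked kinase, PINCH and parvin, together with vinculin, paxillin, zyxin, p130Cas and focal adhesion kinase, then couples the receptor to actin and to signalling. In carcinoma cells these genes are best known for their part in migration and invasion.

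Values are MAS5 intensities on a linear scale, 1 per probe set and array. The 50th percentile of each array, 71.0 for vector and 69.0 for S100A7, served as a floor. Probe sets at or over it on either array count as measured, readings under it were set to it, and a ratio with 1 reading set to the floor is a bound. Each gene is given by its brightest measured probe set unless said otherwise. With 1 array per group there was no spread between cultures to set a difference against and no test, so genes were counted by size. Between probe sets of the same gene the standard deviation of the log2 ratio was 0.36 over 6465 genes, and over 18 probe sets for spiked hybridisation controls it was 0.0987. Neither is a spread between cultures. The S100A7 probe set itself read 11.99 with vector and 13232 with S100A7, at least 186-fold higher, as labelled. Among known marks of the line, VIM read 38087 and 35575, and the epithelial cadherin gene CDH1 was below the floor on both arrays. Of 5 mesenchymal markers 5 were measured, though CDH2 was under the floor with vector (49.0 and 82.2). SNAI2 (Slug) was the 1 past 2-fold, at 1377 and 2912. Of 7 breast epithelial markers 5 were measured with 0 past 2-fold. KRT8, KRT18, EPCAM and GATA3 were over the floor on both arrays, KRT18 at 18785 and 15670. Over all measured genes 1.80% were at least 2-fold higher and 2.25% lower. A change in every cell and a change in the share of cells with a transcript cannot be told apart in such bulk RNA.

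Of the 39 genes 28 were measured, and 22 of these lay within 1.5-fold, as did 10383 of all 12688 measured genes. At least 2-fold higher on the S100A7 array were 2 of the 28, FERMT3 and ITGB4, where 1.80% of the 12688 measured genes were. At least 2-fold lower were 0 of the 28, against 2.25% of all measured genes. At the lower mark of 1.5-fold the counts were 4 higher (FERMT3, ITGB4, ITGAV and ITGA1) against 8.12% of all genes, and 2 lower (FERMT1 and ITGAM) against 10.0%. The median log2 ratio of the 28 was 0.12, and 17 of them were above 0. Over all measured genes the median was -0.04, with 5816 of 12688 above 0.

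**Figure D1:**
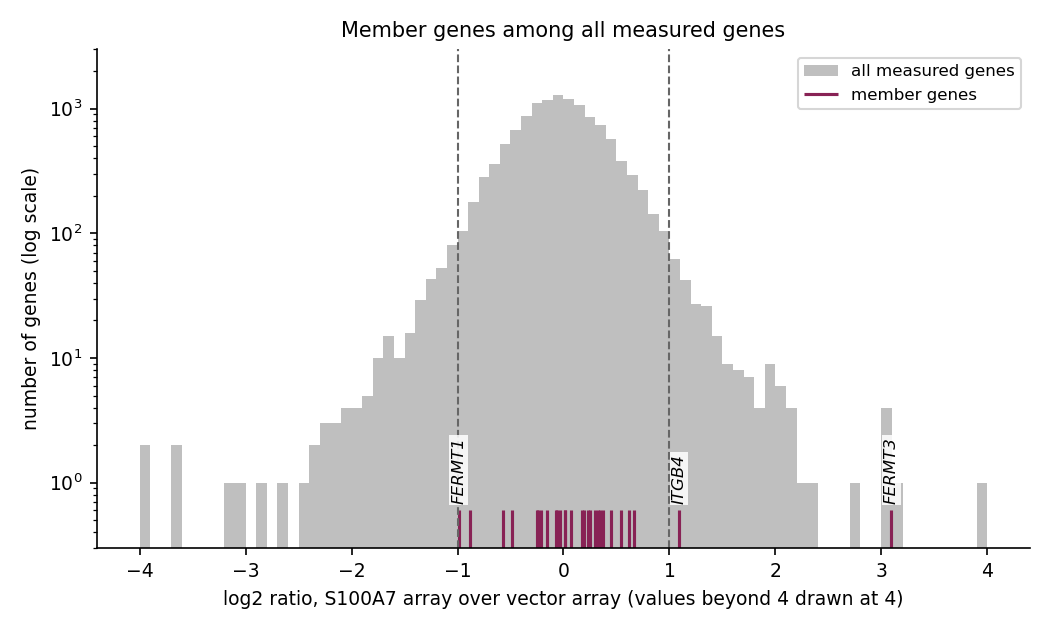
Grey bars count all 12688 measured genes by log2 ratio (S100A7 over vector), on a log scale, with values beyond 4 in either direction drawn at 4; purple ticks mark the 28 measured member genes and dashed lines mark 2-fold. Most ticks lie near 0, FERMT3 stands far to the right at 3.09, ITGB4 lies just past the 2-fold line at 1.09 and FERMT1 just inside it at -0.99.

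With bounds taken at their value, both the highest and the lowest log2 ratio among the 28 belonged to kindlins. The lowest end depends on the floor: without one, ITGAM stood at -1.39 and ITGA2B at -1.75, below FERMT1 at -0.99. Kindlins are encoded by the FERMT genes and bind the integrin beta tail beside talin. FERMT3, kindlin-3, is the form known from blood cells and platelets, where its loss stops integrin activation. Its probe set read 118.9 with vector and 1015 with S100A7, 8.54-fold higher (log2 ratio 3.09). With bounds taken at their value, this was the log2 ratio ranked 3 from the top among the 12688 measured genes. The vector reading was above the floor, so the fold is not a bound, but it rests on the only probe set of the gene.

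FERMT1, kindlin-1, the epithelial form whose loss causes a skin blistering disease, was lower on the S100A7 array by a fold just under 2. Its brightest probe set read 1249 with vector and 629.0 with S100A7 (1.99-fold lower, log2 ratio -0.99). The second read 787.8 and 374.9 (-1.07) and the third read 448.7 and 205.8 (-1.12). All 3 measured probe sets were thus lower by nearly the same ratio. FERMT1 was the 1 member among 17 with at least 2 measured probe sets in which all of them were at least 1.5-fold lower, a rule that 2.46% of the 6465 such genes met. The rule in the other direction was met by 0 of the 17 members and by 2.41% of all such genes.

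FERMT2, kindlin-2, the widely expressed form that sits in focal adhesions, was level. It read 3472 with vector and 3651 with S100A7 (log2 ratio 0.07), and its 3 probe sets lay between -0.06 and 0.27. Thus 1 kindlin was far higher, 1 was lower and 1 was level on the S100A7 array. Intensities of different probe sets are not on a common scale, so the 3 kindlins cannot be ranked by amount.

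Markers of blood cells were read beside FERMT3, since that gene is known from them. Of 16 leukocyte markers 8 were measured, with a median log2 ratio of -0.05 and a summed intensity of 25214 with vector and 25977 with S100A7. Past 2-fold were 0, where 1.80% of all measured genes were higher and 2.25% lower. Among those under the floor in both lines were PTPRC (CD45, on all leukocytes), SPI1 (a transcription factor of myeloid and B cells), LYZ and TYROBP, with PTPRC at 27.2 and 50.1. All 8 measured markers were over the floor on both arrays, among them WAS (392.9 and 364.7), CORO1A (94.9 and 86.9) and FCER1G (82.9 and 84.3). The highest ratios were those of LAPTM5, at 2563 and 4048 (1.58-fold higher), and CSF1R, at 127.7 and 163.5 (log2 ratio 0.36). The lowest was that of CD53, at 254.7 and 145.1 (1.76-fold lower). LCP1 (11511 and 11589) and ARHGDIB (10187 and 9496) make up most of the sum. Of 8 platelet markers 2 were measured, PF4 (80.4 and 55.9) and GP1BA (99.9 and 120.1), and PPBP, GP9, GP6, TREML1 and TUBB1 stayed under the floor in both lines. The summed intensity of the 2 was 180.3 and 176.0. Other genes of the platelet and leukocyte integrin system are given with the integrin chains.

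The sequences before the starts of the kindlin genes, and of the other integrin genes at least 1.5-fold higher, are shown because these genes gave different ratios and the windows lie just before their transcription starts. They are from RefSeq on GRCh38.p14, cover 250 bases up to the annotated start and run 5′ to 3′ on the strand of the gene. The table held windows for 28 of the 39 genes, and FERMT1 and ITGB4 are named only. ITGAM, whose ratio is a bound on the lower side, is not among the genes shown. Capitals mark matches, on either strand, to any of 8 motifs that were searched. A GC box is spelt GGGCGG and is the site of SP and KLF factors. The AP-1 site, of JUN and FOS factors, is TGANTCA. The core of ETS factors is CGGAAG, and the TATA box is TATAAA. The RUNX core was searched as TGTGGT. The GATA core was AGATAA. The E-box, bound by SNAI and ZEB factors among others, was CAGGTG. The NF-kB site was searched by its usual consensus, which was settled on only after the matches of 2 looser patterns had been seen, and both of those also matched before the inner FERMT3 start. Overlapping matches run together in capitals.
FERMT3, outer start, chr11:64206471-64206720, plus strand: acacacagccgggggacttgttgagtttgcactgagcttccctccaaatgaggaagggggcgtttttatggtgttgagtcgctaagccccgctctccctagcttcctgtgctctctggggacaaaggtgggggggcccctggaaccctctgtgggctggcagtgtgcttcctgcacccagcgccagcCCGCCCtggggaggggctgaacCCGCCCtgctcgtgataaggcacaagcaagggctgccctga
FERMT3, inner start, chr11:64207456-64207705, plus strand: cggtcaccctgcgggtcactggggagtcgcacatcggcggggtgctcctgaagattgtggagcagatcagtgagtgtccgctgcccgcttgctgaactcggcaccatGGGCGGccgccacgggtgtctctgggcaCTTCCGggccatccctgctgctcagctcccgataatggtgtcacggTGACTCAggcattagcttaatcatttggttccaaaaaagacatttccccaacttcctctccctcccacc
FERMT2, chr14:52951051-52951300, minus strand: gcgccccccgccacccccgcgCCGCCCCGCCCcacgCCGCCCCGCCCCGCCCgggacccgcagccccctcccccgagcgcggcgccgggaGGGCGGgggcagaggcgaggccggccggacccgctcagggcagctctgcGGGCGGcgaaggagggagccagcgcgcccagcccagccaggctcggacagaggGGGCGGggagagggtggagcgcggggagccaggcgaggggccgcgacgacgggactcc
ITGA1, chr5:52787666-52787915, plus strand: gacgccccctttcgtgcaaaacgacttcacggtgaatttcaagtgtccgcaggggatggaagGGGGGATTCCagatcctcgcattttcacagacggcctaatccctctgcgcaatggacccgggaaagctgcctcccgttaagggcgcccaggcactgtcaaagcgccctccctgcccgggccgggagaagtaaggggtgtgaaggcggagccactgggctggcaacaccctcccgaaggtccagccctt
ITGAV, outer start, chr2:186589806-186590055, plus strand: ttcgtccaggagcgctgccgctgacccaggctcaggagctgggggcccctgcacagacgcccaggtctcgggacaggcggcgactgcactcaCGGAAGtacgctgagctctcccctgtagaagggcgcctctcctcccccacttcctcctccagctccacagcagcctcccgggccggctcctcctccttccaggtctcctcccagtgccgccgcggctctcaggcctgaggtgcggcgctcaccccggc

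The windows differ in base composition. GC content was 84.4% for FERMT2, whose window held 8 GC boxes, 62.8% and 60.0% for FERMT3 and 62.0% for ITGA1. For ITGAV it was 70.8% before the outer start and 40.8% before an inner start, whose window is not printed. The median was 58.0% over all 35116 windows of the table. GC boxes were in 42.6% of all windows. The window before the inner FERMT3 start held a match to the ETS core 115 bases before the start, to the AP-1 site 69 bases before it and to 1 GC box, and that before the outer start held 2 GC boxes. The AP-1 site was in 6.57% of all windows and the ETS core in 16.5%. The ITGA1 window held a match to the NF-kB site 188 bases before the start, and the outer ITGAV window an ETS core 158 bases before its start. The NF-kB site was in 5.21% of all windows. Among member windows not printed, the ETS core was in those of ITGA6, ITGAM, ITGB5 and ZYX. The NF-kB site was in those of BCAR1, ITGA5, ITGA10, ITGA11, PARVB, VCL and ZYX. Each of these sets held genes with log2 ratios above 0 and genes with ratios below 0. The AP-1 site was also in member windows of BCAR1 (log2 ratio 0.02) and of LIMS1, whose own probe sets were below the floor. The other 4 motifs were found in 0 of the windows shown: the TATA box was in 10.7% of all windows, the RUNX core in 11%, the GATA core in 9.17% and the E-box in 17.5%. The inner ITGAV window, not printed, held 1 GATA core. A match describes letters in a window and was not tested as a binding site.

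Among alpha chains, which set the ligand, 10 of 17 were measured, 6 with a log2 ratio above 0 and 0 past 2-fold. Of all 12688 measured genes 5816 were above 0, with 1.80% at least 2-fold higher and 2.25% lower. ITGAV, the partner of several beta chains in receptors for vitronectin and fibronectin, was the highest. It read 2612 with vector and 4143 with S100A7, 1.59-fold higher (log2 ratio 0.67). ITGA5, the chain of the classical fibronectin receptor, read 828.5 and 949.3 (1.15-fold higher). ITGA2B, the platelet chain, was at the floor, with 71.9 with vector and 21.4 with S100A7, and ITGA8 was below the floor on both. ITGAV and ITGA5 each rested on 1 probe set.

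The laminin-binding chains went opposite ways. ITGA3, which pairs with ITGB1 to bind laminins of basement membranes, read 3419 with vector and 4979 with S100A7 (1.46-fold higher, log2 ratio 0.54). ITGA6, the partner of ITGB4 in hemidesmosomes and of ITGB1 elsewhere, read 1852 and 1319 (1.40-fold lower, log2 ratio -0.49), and its other probe set read 1494 and 1029 (-0.54). Both ITGA6 probe sets therefore gave almost the same ratio, but the 40 measured genes nearest to it on chromosome 2 had a median of -0.33. ITGA7, the muscle form, was below the floor on both arrays.

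Of the 4 collagen-binding chains 3 were measured, and 1 of them, ITGA1, was at least 1.5-fold higher, as were 8.12% of all measured genes. ITGA1 read 118.9 with vector and 182.5 with S100A7 (1.53-fold higher, log2 ratio 0.62), from 1 of 3 probe sets. ITGA2, its neighbour on chromosome 5 and a main collagen receptor chain of epithelial cells, read 1062 and 1330 (1.25-fold higher), yet its other probe set read 569.9 and 479.6, a log2 ratio of -0.25. ITGA10 read 64.7 and 80.0, near the floor, and ITGA11 was below it on both arrays. No direction can be read for ITGA2 from probe sets that disagree.

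Alpha chains of leukocytes were few. ITGAE, which pairs with ITGB7 to bind E-cadherin, read 6610 with vector and 5703 with S100A7 (1.16-fold lower). ITGAM, a chain of the complement receptor of myeloid cells, read 127.1 and 48.4, at least 1.84-fold lower, from 1 of 2 probe sets. ITGAL, ITGAX, ITGA4 and ITGA9 were below the floor on both arrays, ITGA4 with no probe set over 43.1 with vector and 14.1 with S100A7. The leukocyte chains that stayed over the floor on both arrays were thus ITGAE and, among the beta chains, ITGB2.

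**Figure D2:**
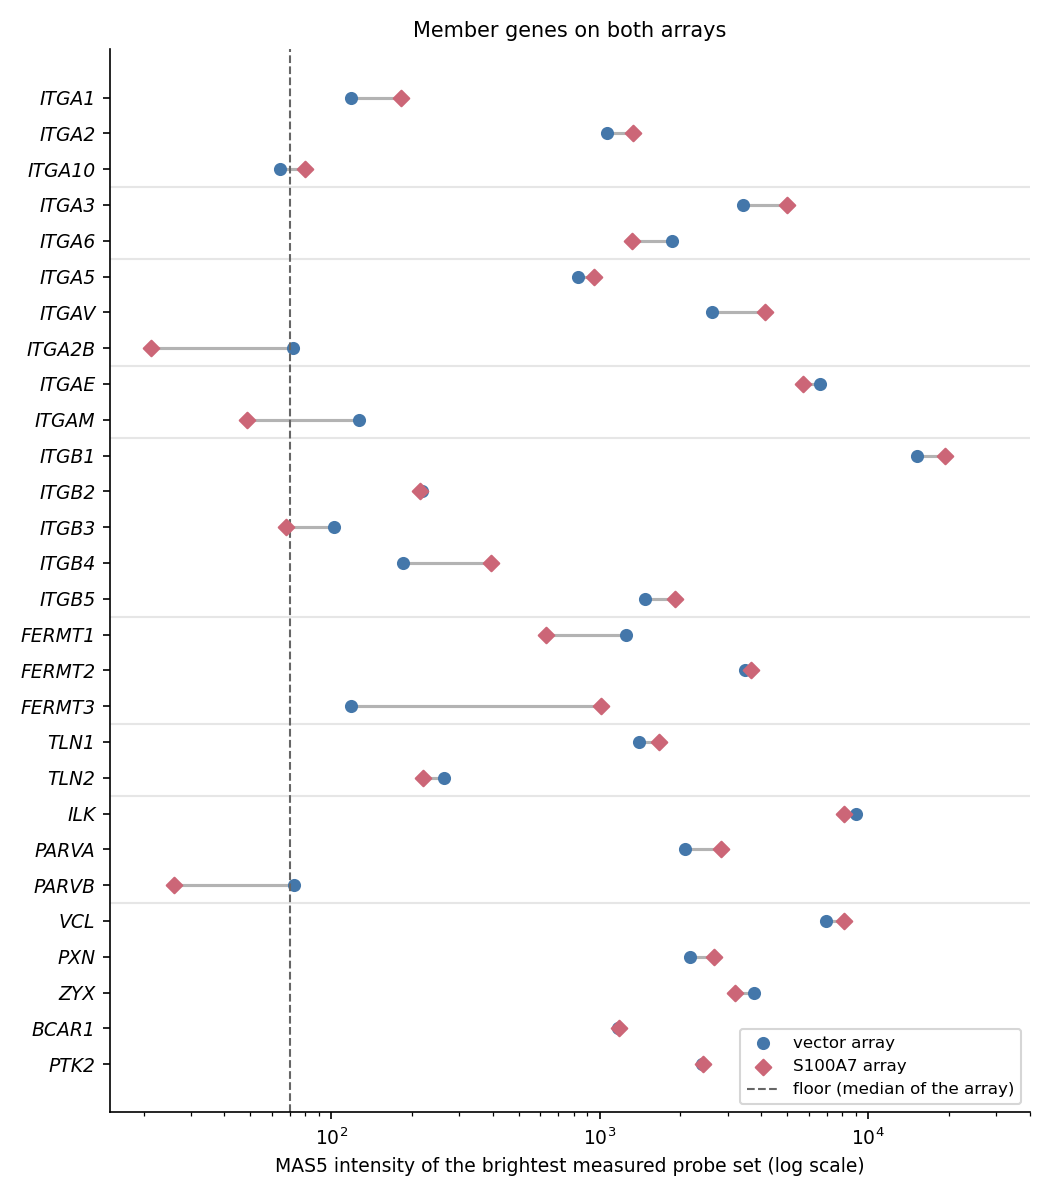
Each line is a measured member gene, with the MAS5 intensity of its brightest measured probe set on the vector array (blue circle) and the S100A7 array (red diamond) on a log axis, 1 array each; the dashed line stands for the floors of both arrays, and levels of different genes are not on a common scale. The longest line above the floor is that of FERMT3, from 118.9 to 1015, while BCAR1, PTK2, ITGB2 and FERMT2 have nearly coinciding points.

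Beta chains carry the tail that talin and kindlin bind, and 5 of 8 were measured. ITGB1, the shared partner of most alpha chains here, read 15236 with vector and 19324 with S100A7 (1.27-fold higher, log2 ratio 0.34). Its other measured probe sets read 7622 and 14865 (0.96) and 8566 and 11815 (0.46). All 3 were thus higher, by amounts from 0.34 to 0.96. The median of the 40 nearest measured genes on chromosome 10 was 0.32, about that of the brightest ITGB1 probe set.

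ITGB4, the long-tailed chain that anchors epithelial cells to laminin through keratin, was the other member past 2-fold. Its brightest probe set read 185.1 with vector and 394.9 with S100A7 (2.13-fold higher, log2 ratio 1.09). The next read 195.1 and 284.1 (0.54) and the third 87.5 and 108.5 (0.31), so all 3 were higher and 1 passed the mark. With the median over probe sets its log2 ratio was 0.54, and with a floor at the 70th percentile it was 0.48. Its alpha partner ITGA6 was lower, as given above.

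ITGB5, which pairs with ITGAV to bind vitronectin, read 1474 with vector and 1904 with S100A7 (1.29-fold higher). Its 4 measured probe sets spread over both directions: 653.5 and 445.6 gave -0.55, 133.8 and 250 gave 0.90, and 70.5 and 70.0 gave -0.02. No direction can be read for ITGB5. ITGB3, the other vitronectin receptor chain and the platelet partner of ITGA2B, read 102.7 and 67.7, at least 1.49-fold lower, and its second measured probe set read 90.8 and 65.2. Another 5 of its 7 probe sets stayed under the floor throughout. ITGB8 and ITGB7 were below the floor on both arrays too.

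ITGB2, the common beta chain of leukocyte integrins, was level at 218.3 with vector and 213.7 with S100A7 (log2 ratio -0.03). Its other measured probe set read 183.5 and 173.8. FERMT3 was thus higher beside a level reading of the leukocyte beta chain. Probe sets listing a member together with another gene numbered 6 and were named for none: 4 of them were below the floor on both arrays, and 2 had log2 ratios of 0.27 and 0.05. ITGB6 was covered by such probe sets alone, and the 3 probe sets of LIMS1 (PINCH-1) alone were below the floor.

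Talins, the other proteins that bind the beta tail, differed a little. TLN1, the general form, read 1402 with vector and 1665 with S100A7 (1.19-fold higher, log2 ratio 0.25), and its second probe set read 211.6 and 286.9 (0.44). TLN2, the form more common in muscle and brain, read 262.0 and 219.8 (1.19-fold lower, log2 ratio -0.25), and its second probe set read 277.4 and 180.2 (-0.62). Both TLN1 probe sets were higher and both TLN2 probe sets lower. The ratios of the brightest probe sets were smaller than the 0.36 between probe sets of a gene.

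In the complex of integrin-linked kinase, ILK itself read 9036 with vector and 8138 with S100A7 (1.11-fold lower). PARVA, alpha-parvin, which links ILK to actin, had 7 measured probe sets, 6 of them above 0. The brightest read 2071 and 2834 (1.37-fold higher, log2 ratio 0.45), and the next read 975.5 and 1413 (0.53). The largest ratios came from dimmer probe sets, 103.3 and 328.1 (1.67) and 247.4 and 519.4 (1.07), while 143.4 and 136.6 gave -0.07. PARVA was thus higher on most probe sets, by an amount that depends on which is read: without probe sets of the suffixes _x_at and _s_at it was among the genes past 2-fold. PARVB, beta-parvin, was at the floor, at 72.4 and 25.9.

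Of the plaque proteins 5 of 5 were measured and all 5 lay within 1.5-fold, as did 10383 of all 12688 measured genes. VCL, vinculin, which reinforces the bond to actin under tension, read 6955 with vector and 8159 with S100A7 (log2 ratio 0.23). PXN, the scaffold paxillin, read 2178 and 2672 (0.30). ZYX, zyxin, which gathers actin-building proteins, read 3771 and 3184 (-0.24), and its second probe set gave -0.02. BCAR1, p130Cas, a scaffold phosphorylated on stretch, read 1170 and 1182 (0.02). PTK2, focal adhesion kinase, read 2408 and 2433 (0.01), with its other probe sets at 0.09 and -0.32. The ratio of the brightest probe set was smaller than 0.36 in each of the 5.

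**Figure D3:**
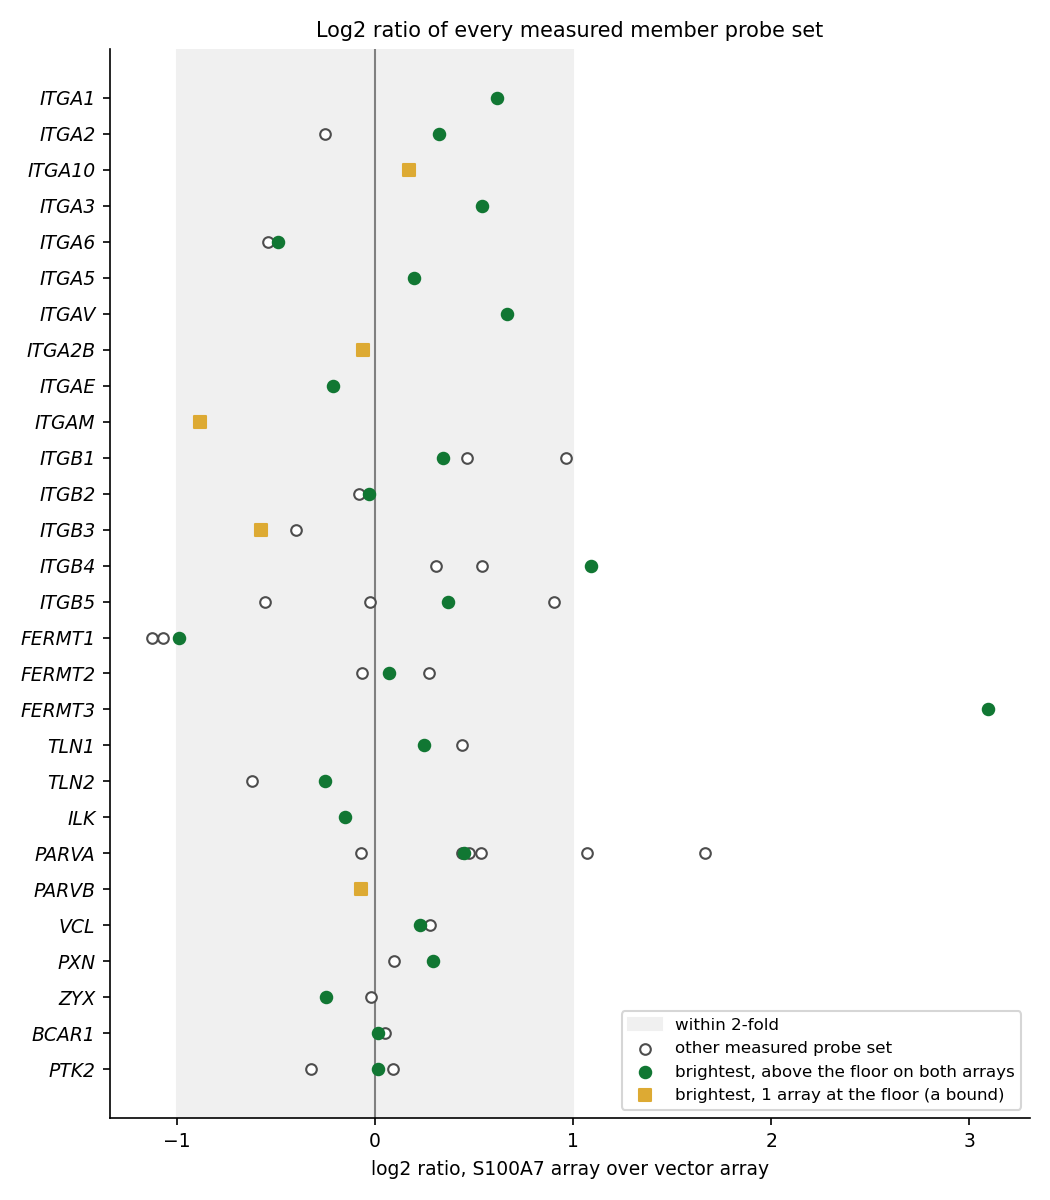
Every measured probe set of the member genes is drawn by its log2 ratio, with the brightest of each gene in green, or as a yellow square where 1 array was at the floor, and the others open; the grey band is 2-fold. The 3 FERMT1 probe sets cluster near -1, those of PARVA and ITGB5 spread widely, and FERMT3 has a single point at 3.09.

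Among the 17 members with at least 2 measured probe sets, all probe sets were above 0 in 6 (BCAR1, ITGB1, ITGB4, PXN, TLN1 and VCL) and all below 0 in 6 (FERMT1, ITGA6, ITGB2, ITGB3, TLN2 and ZYX). They lay on both sides of 0 in 5 (FERMT2, ITGA2, ITGB5, PARVA and PTK2). Over all such genes these shares were 27.7%, 29.2% and 43.1%. The other 11 measured members, FERMT3, ITGAV and ITGA3 among them, rested on 1 measured probe set.

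The ratios were also set beside those of neighbouring genes on the chromosome. Of the 28 members 19 had the same sign as the median of their 40 nearest measured genes, a share of 67.9%, and over all genes that share was 65.9%. Next to FERMT3 on chromosome 11, STIP1 had a log2 ratio of 0.38, TRPT1 of 0.46 and NUDT22 of 0.46. FLRT1, under the floor with vector, was level at 0.005 (a bound). The 40 nearest measured genes had a median of 0.28. Without that median FERMT3 stood at 2.82. Around FERMT1 on chromosome 20 the median was -0.30, and FERMT1 stood at -0.69 without it. TMX4 was at -0.97, CRLS1 at -0.44, MCM8 at -0.43 and BMP2, under the floor with S100A7, at -0.20 (a bound). Around ITGAV the median was 0.04 and around ITGB4 0.09. Among the 9 without a shared sign, ITGB3 stood at -0.57 beside a median of 0.20, TLN1 at 0.25 beside -0.14 and BCAR1 at 0.02 beside -0.34. The part of such neighbourhoods in the members' values was not tested.

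The rest of the adhesion pathway was read through lists of genes by role, chosen with earlier results of these data known. Of 13 measured modulators of integrin activity (16 listed) 6 were above 0, with a median log2 ratio of -0.03. At least 2-fold higher were 0, against 1.80% of all measured genes, and 1 was at least 2-fold lower, against 2.25%. That gene was KANK1, which binds talin at the rim of adhesions and tethers microtubules there: it read 385.0 with vector and 163.6 with S100A7, 2.35-fold lower, with its second probe set at -0.73. RASIP1 (at least 1.58-fold lower) and CIB1, which binds the ITGA2B tail (1.30-fold lower), followed. RSU1, a partner of PINCH, read 1418 and 2008 (1.42-fold higher), and the small GTPase RAP1B, which recruits talin, was 1.23-fold higher. Its relative RAP1A was 1.05-fold higher on its brightest probe set, while its other probe sets ran up to a log2 ratio of at least 8.28 and are described under the other observations.

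Of 36 adaptors and signalling enzymes 31 were measured, 16 of them above 0 (median 0.02). Past 2-fold were 0 in either direction, where 1.80% of all measured genes were higher and 2.25% lower, and past 1.5-fold were 3 higher and 3 lower, against 8.12% and 10.0%. LPXN, leupaxin, a paxillin relative first known from leukocytes, was the highest, at 537.2 with vector and 1003 with S100A7 (1.87-fold). The Src-family kinases FYN (1260 and 2017) and YES1 (2736 and 4109) came next, while SRC read 277.1 and 299.6. FYN had probe sets from -0.28 to 1.05. Lowest were the Rac and Cdc42 exchange factor ARHGEF6 (at least 1.66-fold lower), the pseudokinase gene PEAK1 (1.61-fold lower) and ARHGAP35, a RhoA inhibitor (1.58-fold lower, with all 5 of its probe sets below 0).

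Actin linkers and LIM proteins had a median of -0.14, with 10 of 29 measured genes above 0. Over all measured genes the median was -0.04, with 5816 of 12688 above 0. SORBS2, an adaptor of stress fibres and adhesions, was the 1 past 2-fold, where 1.80% of all measured genes were higher and 2.25% lower. It read 10.7 with vector and 183.7 with S100A7, at least 2.59-fold higher. TNS4, a short tensin that lacks the actin-binding part, read 48.6 and 130.5 (at least 1.84-fold higher), and ZFYVE21 was 1.67-fold higher. PALLD, palladin, which organises stress fibres, read 1864 and 998.5 (1.87-fold lower), and its 3 probe sets lay between -1.08 and -0.71. CSRP2 was 1.69-fold lower and SYNPO2 1.67-fold lower.

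Partners that sit beside integrins in the membrane had a median of 0.02 over 17 measured genes. Past 2-fold were 0, where 1.80% of all measured genes were higher and 2.25% lower. At least 1.5-fold lower were 2, against 10.0% of all. The tetraspanins CD9 (1.21-fold, on probe sets that ran from -0.39 to 0.27) and CD82 (1.14-fold) and the lectin gene LGALS3 (1.21-fold) were the highest. PLAUR, the urokinase receptor, read 8260 with vector and 4300 with S100A7 (1.92-fold lower), with all 3 probe sets between -1.24 and -0.94. SDC1, the proteoglycan syndecan-1, was 1.65-fold lower and CAV1, caveolin-1, 1.38-fold lower.

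Of 27 measured matrix ligands (39 listed) 7 were at least 2-fold higher, where 1.80% of all measured genes were, and 1 was at least 2-fold lower, against 2.25%. Since the list was chosen with earlier results of these data known, this count is no independent evidence on matrix ligands as a set. Their median was 0.06, and that of the measured integrin subunits was 0.20. EDIL3, a secreted ligand of ITGAV receptors, read 568.8 with vector and 1481 with S100A7 (2.60-fold higher), and log2 ratios ran from 0.90 to 1.43 over its 3 probe sets. THBS2, thrombospondin-2, read 290.9 and 751.6 (2.58-fold higher). The other 5 were COL6A2, COL6A1, LAMA5, COL4A1 and LAMC1, from 2.16-fold to 4.40-fold higher, chains of collagens and laminins that ITGA1, ITGA2, ITGA3 and ITGA6 receptors bind. The 6 measured probe sets of COL6A1 lay on both sides of 0, from -0.30 to 1.81, so its 3.51-fold depends on which is read. Those of LAMC1 ran from 0.38 to 1.11, so its place past 2-fold depends on this too. TNC, tenascin-C, was 3.15-fold lower, COL1A1 1.73-fold lower on probe sets that disagreed (-0.79 to 0.76) and LAMA2 1.69-fold lower on probe sets that also disagreed (-0.76 to 0.42). FN1, fibronectin, chosen after its values were seen, read 1312 and 863.7, with all 5 of its measured probe sets between -1.18 and -0.31.

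Of 15 listed ligands on other cells 7 were measured, 5 of them above 0, where 5816 of all 12688 measured genes were. At least 2-fold higher were 2, against 1.80% of all, and 0 were at least 2-fold lower, against 2.25%. Their median was 0.44 and depended on the floor. It was 0.11 over 14 genes without a floor and 0.84 over 4 genes with a floor at the 70th percentile. ICAM2 read 321.1 with vector and 751.9 with S100A7 (2.34-fold higher), on probe sets that ran from 0.60 to 1.23. ICAM1 was 2.30-fold higher, and L1CAM, which binds ITGAV and ITGA5 receptors, was 1.40-fold higher. ICAM3 went the other way, at 518.1 and 267.3 (1.94-fold lower), on 1 probe set. JAM3 was at least 1.21-fold lower and PECAM1 1.27-fold higher. ICAM1, ICAM2 and ICAM3 are ligands of the ITGAL and ITGB2 receptor, whose alpha chain was below the floor on both arrays.

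**Figure D4:**
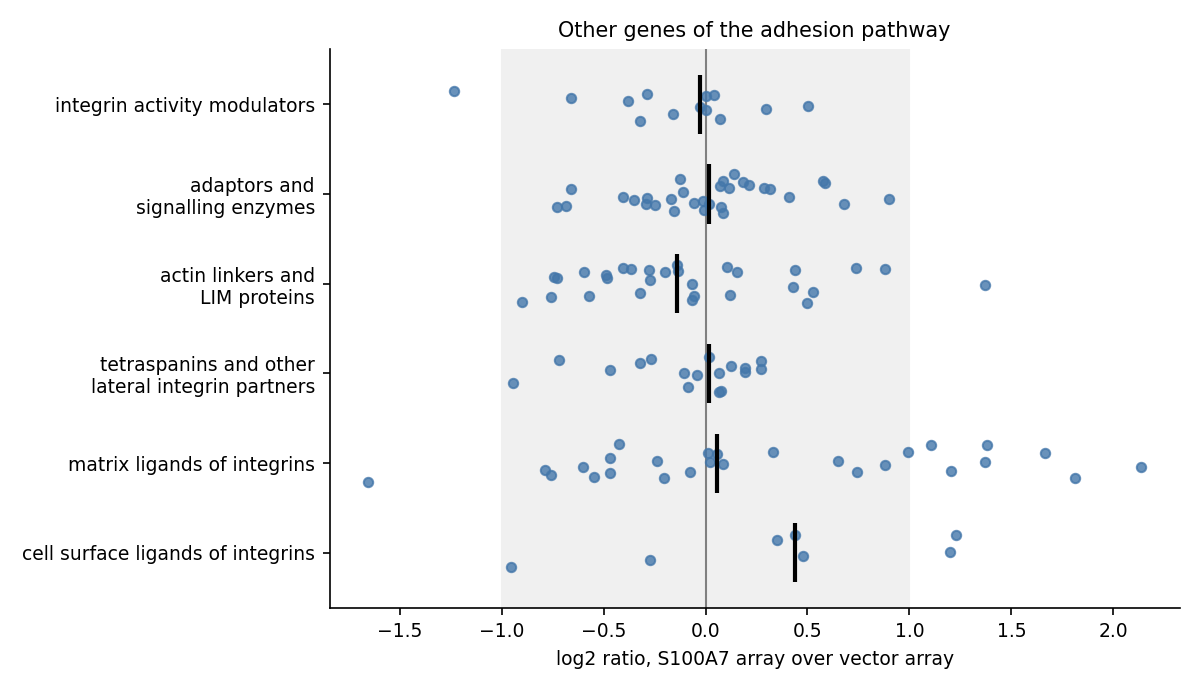
Points are the measured genes of 6 adhesion lists by log2 ratio (S100A7 over vector), spread vertically for visibility, with a black bar at each median; the grey band is 2-fold. Matrix ligands spread the widest, from TNC at -1.65 to COL6A2 at 2.14, while adaptors and membrane partners stay within the band.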

How the data were processed

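Total RNA of 2 stable transfectants of MDA-MB 231 was measured on Affymetrix arrays, 1 per group. The deposited values are MAS5 intensities, per the submitters' processing notes; the sources used here give no version, scaling target or detection call. A trimmed mean (2% cut from either end) came to 500.1 for each array, so values were used as deposited, with medians of 71.2 (vector) and 69.2 (S100A7). Columns of values left unused numbered 0. The platform annotation gave 41097 of 54675 probe sets 1 gene, 1801 several and 11721 none, and 62 were controls; 41043 were matched by Entrez identifier to RefSeq names. The floor was each array's 50th percentile without controls, leaving 24438 probe sets for 12688 genes. Genes were represented by the brightest measured probe set.

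The members and lists were chosen with earlier results of these data known, and the promoter motifs with matches in view. Named were all members, and from each of the 6 adhesion lists the 3 highest, the 3 lowest and all past 2-fold. Alternatives covered scaling, other floors (30th and 70th percentile) or none, a pseudocount of 32 instead, probe set choice, chromosomal neighbours (20 on each side) and thresholds of 1.5-fold and 3-fold. The steps were tested on simulated arrays, with noise smaller than the spread between probe sets of a gene here. Such a run checks the steps and does not show how reliable a call from 1 array per group is. Python 3.11.15, numpy 2.4.6, pandas 2.3.3 and matplotlib 3.10.9 were used.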

Additional observations from a re-analysis of the deposited data

How the results depend on the processing

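With 1 array per group and no replicates, no difference has a check against culture or stable line, and depth here means signal over the floor: 5 of 28 measured members had 1 array at the floor. No paired analysis was possible because each group has 1 array. The median of the measured members, 0.12 over 28, stayed above 0 under all 9 alternatives, from 0.02 (38 members measured, floor at the 30th percentile) to 0.24 (20 measured, 70th percentile), and 24 of 28 members kept their sign in each alternative that measured them, the exceptions being ITGB2, PARVB, TLN2 and ZYX. FERMT3 ran from 1.84 (floor at the 70th percentile) to 3.13 and was past 2-fold throughout. ITGB4 was not past 2-fold with a floor at the 70th percentile, a pseudocount, the median over probe sets or neighbours subtracted. In each of these cases 1 member was higher. The count of higher members was also 1 at 3-fold, 4 at 1.5-fold and 3 without a floor (FERMT3, ITGA7 and ITGB4). Without _x_at and _s_at probe sets the 2 higher members were FERMT3 and PARVA. The members at least 2-fold lower numbered 0 as reported, 1 with the median over probe sets (FERMT1), 2 at 1.5-fold, 3 with a floor at the 30th percentile (ITGA11, ITGA2B and ITGAM) and 4 without a floor (those and ITGA4). Over all genes, 228 higher and 286 lower became 679 and 979 under the 30th percentile floor, 99 and 88 under the 70th, 1911 and 2387 without one, 1030 and 1275 at 1.5-fold, and 47 and 55 at 3-fold. The cause was not tested.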

Other observations

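RAP1A, a small GTPase that brings talin to integrins, is taken up here, after its values were seen, because its 4 probe sets disagreed more than those of any member gene. The brightest read 4535 with vector and 4768 with S100A7, a log2 ratio of 0.07, and stands for the gene in the list of modulators. Another, with the suffix _x_at for probes that can match several transcripts, read 64.5 and 22127, at least 311.5-fold higher, and a companion without that suffix read 58.7 and 13953, at least 196-fold higher. Like the probe set for the transfected S100A7, at 11.99 and 13232, both were under the floor with vector, so these folds are bounds and give no order among the 3. Both were designed against the same sequence record, which differs from that of the other probe sets. The fourth probe set read 215.8 and 422.0 (log2 ratio 0.97). Whether the 2 probe sets with the large folds match the S100A7 insert or the plasmid was not tested, since probe sequences were not used here, and those folds are not given as a change of RAP1A itself. No direction is given for RAP1A.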
